A study of Drosophila melanogaster with 2 samples.

Results

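MicroRNA precursor genes encode the short hairpins from which microRNAs are cut, and here they were examined for nearby binding of the zinc-finger protein disco-r in fly embryos. The members were all genes with a pre-miRNA transcript in the Ensembl annotation of *Drosophila melanogaster* on chromosomes 2, 3, 4 and X, which gave 260 of 17683 annotated genes once transposable elements were set aside. Of these, 166 lay inside a protein-coding gene, 136 of them on the strand of that host, and 94 lay between protein-coding genes. Joining members less than 10 kb apart gave 198 clusters, of which 171 held a lone gene and the largest held 12.

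Binding was profiled by chromatin immunoprecipitation and sequencing (ChIP-seq) in 1 group of 2 samples, which are biological replicates 2 and 3. Each was a pool of whole embryos of both sexes, aged 0 to 24 h, from a transgenic line (disco-r-GFP) that stably carries a disco-r-eGFP fusion, and chromatin sonicated to 200 to 800 bp was precipitated with an antibody against GFP. One label calls the gene fused to the C-terminal GFP disco, which is the paralog of disco-r, so the identity of the tagged protein rests on the other labels. Whole embryos mix all tissues and all stages of embryogenesis, no untagged or untreated group was analysed here, and the sequencing depth is unknown. The deposited lists hold 30000 candidate regions for each replicate, 29347 candidates from the pooled replicates and 2334 peaks that passed the irreproducible discovery rate (IDR), a filter on how alike the replicates rank a region. The 2334 IDR peaks are the pooled candidates of highest signal, and the weakest of them has a signal of 72.5. The signal is the authors' own value per region, on no stated scale, so it is read only within a list.

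A microRNA gene is transcribed as a long primary transcript that usually starts well away from the hairpin. Drosha and its partner Pasha cut the hairpin out of that transcript in the nucleus, Dicer-1 trims it in the cytoplasm, and AGO1 carries the mature strand to messenger RNAs that pair with bases 2 to 8, the seed. Hairpins inside protein-coding genes often come from the host's transcript, whereas hairpins between genes have primary transcripts of their own. Peaks are therefore placed here both by the hairpin and by the start of the transcript that encloses it.

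The mature microRNAs of the best-characterised genes with an IDR peak nearby are printed here because they name the regulators in question, with the seed in capitals. The sequences were read 5′ to 3′ from the Release 6 assembly (dm6) at the positions that RefSeq annotates.
mir-279: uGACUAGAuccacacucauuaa
mir-282: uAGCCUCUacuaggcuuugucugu
mir-ban: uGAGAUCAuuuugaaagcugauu
mir-92a: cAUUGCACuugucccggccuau
mir-375: uUUGUUCGuuuggcuuaaguua
mir-275: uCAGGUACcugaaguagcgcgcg
mir-305: aUUGUACUucaucaggugcucug
mir-277: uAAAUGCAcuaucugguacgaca

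The seeds of these 8 differ from each other. Taking 1 lead arm per hairpin, 5 of the 24 genes with an IDR peak nearby shared their seed with other members: mir-279 with mir-286 and mir-996, mir-92a with mir-92b and mir-310 to mir-313, mir-308 with 12 genes of the K box family, mir-275 with mir-306 and mir-4968 with mir-980. None of those seed relatives had an IDR summit within 2 kb, a range that held a summit for only 9.23% of all members. Among them, mir-996, mir-2a-1, mir-2a-2, mir-2b-2 and mir-11 had an IDR summit within 500 bp of the start of an enclosing transcript. The copies mir-281-1 and mir-281-2, which have 1 mature microRNA in common although their lead arms differ, were both among the 24.

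The DNA under 3 of the peaks is shown next, as 101 bp centred on the summit and read on the plus strand of dm6. These are the strongest site of all, upstream of mir-279, the site upstream of mir-ban, and the site shared by mir-275 and mir-305, where capitals mark a match to the word GAGAG read on the minus strand.
mir-279, chr3R:29214400-29214500: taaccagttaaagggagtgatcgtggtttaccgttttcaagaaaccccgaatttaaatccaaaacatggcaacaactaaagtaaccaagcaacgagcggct
mir-ban, chr3L:640705-640805: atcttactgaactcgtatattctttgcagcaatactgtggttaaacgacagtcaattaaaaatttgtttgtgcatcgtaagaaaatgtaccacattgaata
mir-275 and mir-305, chr2L:7425384-7425484: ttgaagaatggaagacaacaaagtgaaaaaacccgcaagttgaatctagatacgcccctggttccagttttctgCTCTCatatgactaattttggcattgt

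Across the 24 distinct sites near members, GAGAG on either strand, the word recognised by the GAGA factor, occurred within the 101 bp at 3 sites (12.5%), against 11.4% of all IDR peaks. The E-box CAGCTG occurred at 1 site (4.17%), the one near mir-2493, against 4.80% of all IDR peaks. CAGGTAG, the word bound by the early activator Zelda, and TATCGATA, the word of the promoter factor DREF, occurred at 0 of the 24 sites, against 0.386% and 2.01% of all IDR peaks. The median GC content was 37.6% at the sites near members (27.7% to 50.5%) and 35.6% over all IDR peaks. With 24 sites, shares of this size cannot be told apart.

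An IDR summit lay within 2 kb of 24 of the 260 pre-miRNA genes, or 9.23% (95% Wilson interval 6.28% to 13.4%), and of 22 of the 198 clusters, or 11.1% (7.45% to 16.2%). These intervals cover counting error only. The same measure called 20.4% of all other genes, whose bodies are longer than hairpins, and 15.7% of the starts of protein-coding genes. Among other small RNA genes it called 28.3% of snoRNA genes and 14.5% of tRNA genes. Over positions placed every 10 kb along the genome, each as long as a typical hairpin, it called 6.32%, a value inside the interval of the pre-miRNA genes. Counted by gene, the interval thus lay below the shares of the other kinds of gene and held that of the positions. Counted by cluster, it held the shares of tRNA genes and of protein-coding gene starts and lay above that of the positions. The units differ there, since tRNA genes, starts and positions were counted singly, whereas a cluster can hold several genes. A summit was near 6 of 27 clusters of 2 or more genes (22.2%) and 16 of 171 lone genes (9.36%). With a range of 5 kb, 52 of 260 members had an IDR summit, against 14.1% of the positions. The other kinds of gene rose too, to 26.0% of protein-coding gene starts, 49.8% of snoRNA genes, 67 of 290 tRNA genes and 5251 of 17423 other genes. Counted by gene, the share of the members thus lay below those of the other kinds of gene at both ranges. Beside the positions, where the members stand depends on how they are counted. The members with a summit were spread over 5 of 56 on 2L, 6 of 55 on 2R, 4 of 31 on 3L, 6 of 58 on 3R, 0 of 2 on chromosome 4 and 3 of 58 on X.

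Hairpins inside and between protein-coding genes had equal numbers of bound members. An IDR summit lay within 2 kb of 12 of 166 members inside (7.23%, 4.18% to 12.2%) and of 12 of 94 between (12.8%, 7.46% to 21.0%). Positions every 10 kb gave 7.41% inside protein-coding genes and 4.18% between them. By clusters, which count a shared site once, the numbers were 11 of 140 inside (7.86%, 4.44% to 13.5%), 11 of 56 between (19.6%, 11.3% to 31.8%) and 0 of 2 that hold both kinds. Members inside genes were thus near the value of positions inside genes, whereas the interval of members between genes lay above the value of positions between genes. The positions run along whole chromosome arms, and those between genes lay at a median of 50625 bp from the nearest IDR summit. For members between genes it was 16874 bp, and the part of placement in this contrast was not tested. The intervals of members inside and between genes overlap. All 12 bound members inside genes lay on the strand of a host, out of 136 (8.82%, 5.12% to 14.8%), while 0 of the 30 on the other strand only had a summit (upper bound 11.4%).

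**Figure D1:**
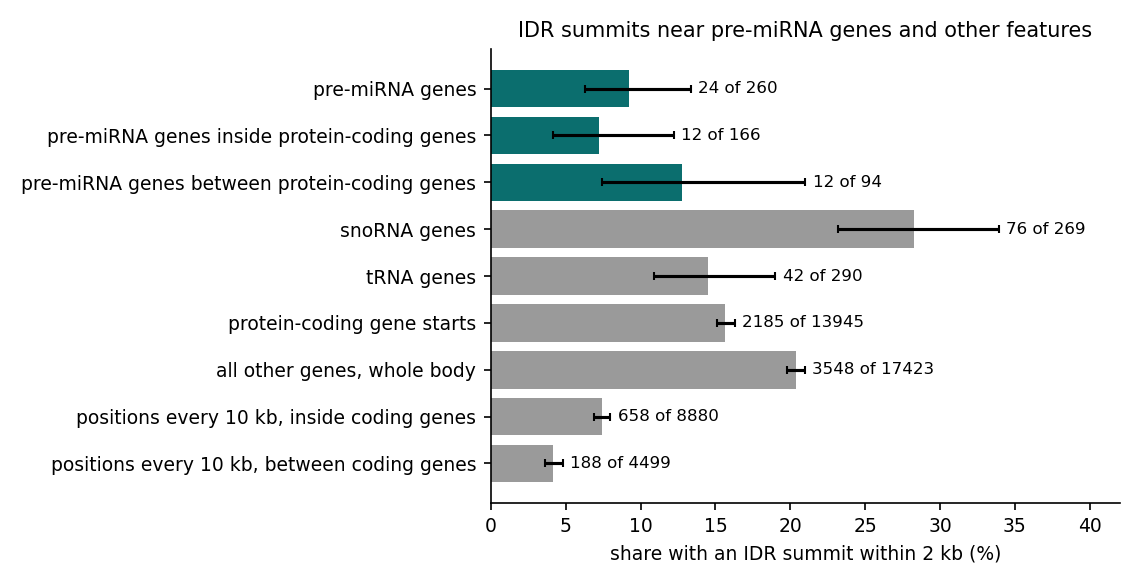
Share of features with an IDR summit within 2 kb (horizontal axis, percent), for pre-miRNA genes (teal) and other features (grey); bars start at 0 and lines are 95% Wilson intervals, with counts printed beside them. The pre-miRNA bars, at 9.23%, 7.23% and 12.8%, lie below the bar for snoRNA genes at 28.3% and that for all other genes at 20.4%.

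Distances to the nearest IDR summit were also compared. Its median was 16725 bp for members (16595 bp inside genes and 16874 bp between), against 13969 bp for all other genes, 15033 bp for protein-coding gene starts, 14956 bp for tRNA genes and 5024 bp for snoRNA genes. For positions every 10 kb it was 30018 bp. Within 500 bp of a summit were 5 of 166 members inside genes (3.01%) and 2 of 94 between (2.13%), against 1394 of 13945 protein-coding gene starts (9.996%). Within 20 kb the shares were 55.4% of members inside and 55.3% between, against 57.5% of protein-coding gene starts. The distributions of hairpins and of coding starts thus lay close together from 10 kb outwards and apart within 500 bp.

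**Figure D2:**
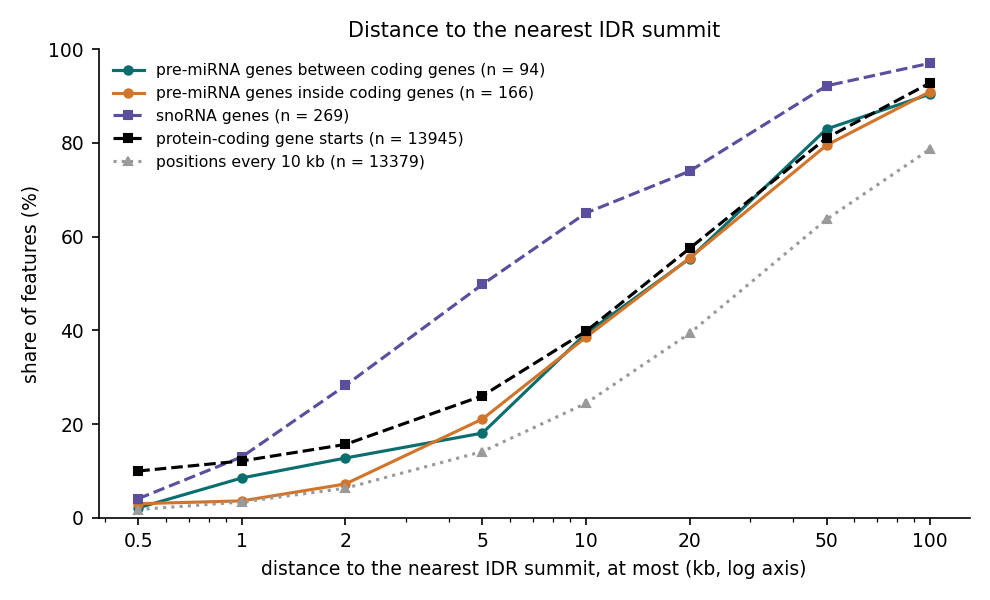
Share of features (vertical axis, percent) whose nearest IDR summit lies within the distance on the horizontal log axis (kb), for pre-miRNA genes between and inside coding genes (solid), snoRNA genes and protein-coding gene starts (dashed) and positions every 10 kb (dotted). The pre-miRNA lines start at 2.13% between and 3.01% inside genes, below the 9.996% of protein-coding gene starts at 0.5 kb, and meet that line by 10 kb.

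The 24 bound members were reached by 24 distinct sites, since mir-375 and mir-9377 had 2 sites each, while mir-275 with mir-305 and mir-281-1 with mir-281-2 shared 1 each. Of these sites, 18 lay upstream of the hairpin in its direction of transcription, 5 downstream and 1 inside it, so 75% were upstream (55.1% to 88.0%). Pooled candidates below the IDR threshold at the same range were split evenly, with 117 upstream, 110 downstream and 8 inside among 235 (49.8% upstream, 43.4% to 56.1%). Among each replicate's own 2334 strongest candidates, 15 of 20 sites were upstream in replicate 2 (75%) and 16 of 24 in replicate 3 (66.7%). This split was chosen for description after the positions had been seen, and the intervals of the IDR sites and the weaker candidates overlap, so it carries no test. The median distance from hairpin to summit was 847 bp. The median pooled signal was 95.9 (73.2 to 497), against 104.7 over all 2334 IDR peaks. By annotation 8 sites fell in exons, 9 in introns and 7 outside transcripts, and the same split over all IDR peaks is not given here.

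**Figure D3:**
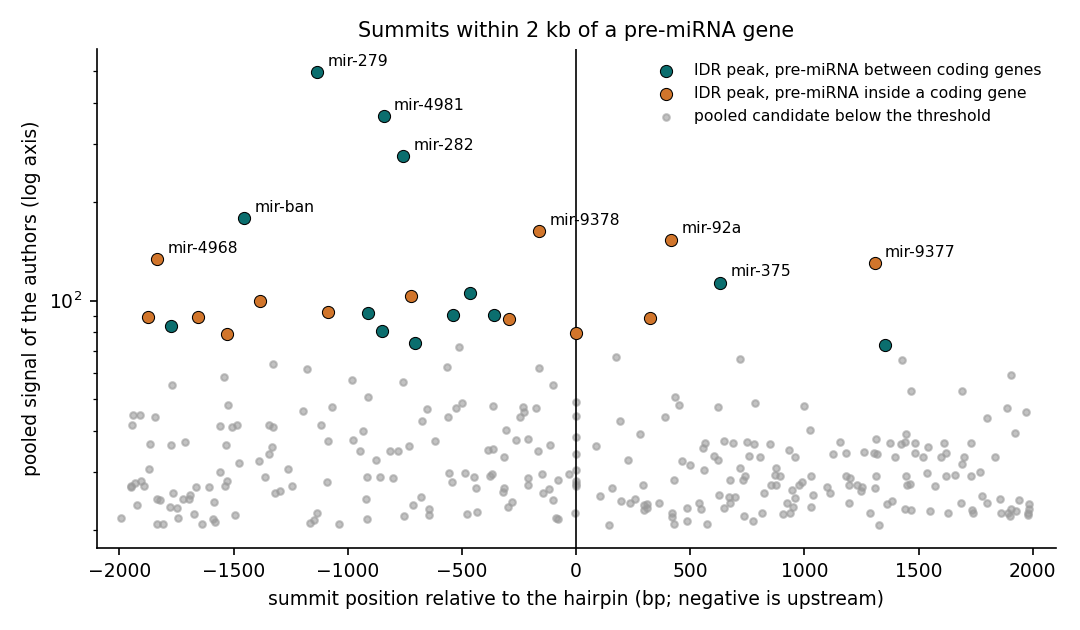
Pooled signal (vertical log axis, the authors' units) against summit position relative to the hairpin (horizontal axis, bp; negative is upstream), with IDR peaks of pre-miRNA genes between coding genes in teal, inside a coding gene in orange, and candidates below the threshold in grey; a site shared by 2 genes is drawn for each. The 4 strongest sites, of mir-279, mir-4981, mir-282 and mir-ban, all lie upstream of hairpins between genes, while the grey points are spread over both sides.

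The strongest site belonged to mir-279, which in flies keeps carbon dioxide-sensing neurons off the maxillary palp and represses the neural gene nerfin-1. Its hairpin occupies 3R from 29215585 to 29215684 on the plus strand, between protein-coding genes. The summit lay 1135 bp upstream and had a pooled signal of 497, rank 32 of the pooled list. In replicate 2 its signal was 222 (rank 46) and in replicate 3 it was 279 (rank 29). Both replicates thus placed it among their 50 strongest regions. The summit was 112 bp from the annotated start of lncRNA:CR31044, the transcript that spans both mir-279 and mir-996. mir-996, which carries the same seed, lay 2734 bp from the summit and therefore outside the 2 kb range, although it is encoded by the transcript that starts there.

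The next site, 843 bp upstream of mir-4981 on 2R, had a pooled signal of 365 (rank 72). Its replicate signals were 159 (rank 98) in replicate 2 and 206 (rank 55) in replicate 3. No annotated transcript encloses mir-4981 on its strand, and the nearest coding start, that of CG14762, was 651 bp from the summit. The site 758 bp upstream of mir-282, a microRNA of the nervous system, had a pooled signal of 275 (rank 134). In replicate 2 it had 153 (rank 103) and in replicate 3 it had 130 (rank 165). It fell in an exon of lncRNA:CR43626, 674 bp from that transcript's start. The regions at these 3 strongest sites were 290, 223 and 101 bp wide, and the other 21 had the standard 400 bp.

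Bantam, the growth-promoting microRNA that blocks the cell-death gene hid, is encoded by mir-ban on 3L from 642208 to 642288. A site 1453 bp upstream had a pooled signal of 178 (rank 384), with 90.2 (rank 409) in replicate 2 and 84.8 (rank 429) in replicate 3. The 2 replicates ranked it alike. It lay in an exon of lncRNA:CR43334, the bantam primary transcript, 1041 bp from its nearest annotated start. A further IDR summit with a pooled signal of 147 stood 2006 bp downstream, just outside the 2 kb range, so the hairpin was flanked by peaks.

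**Figure D4:**
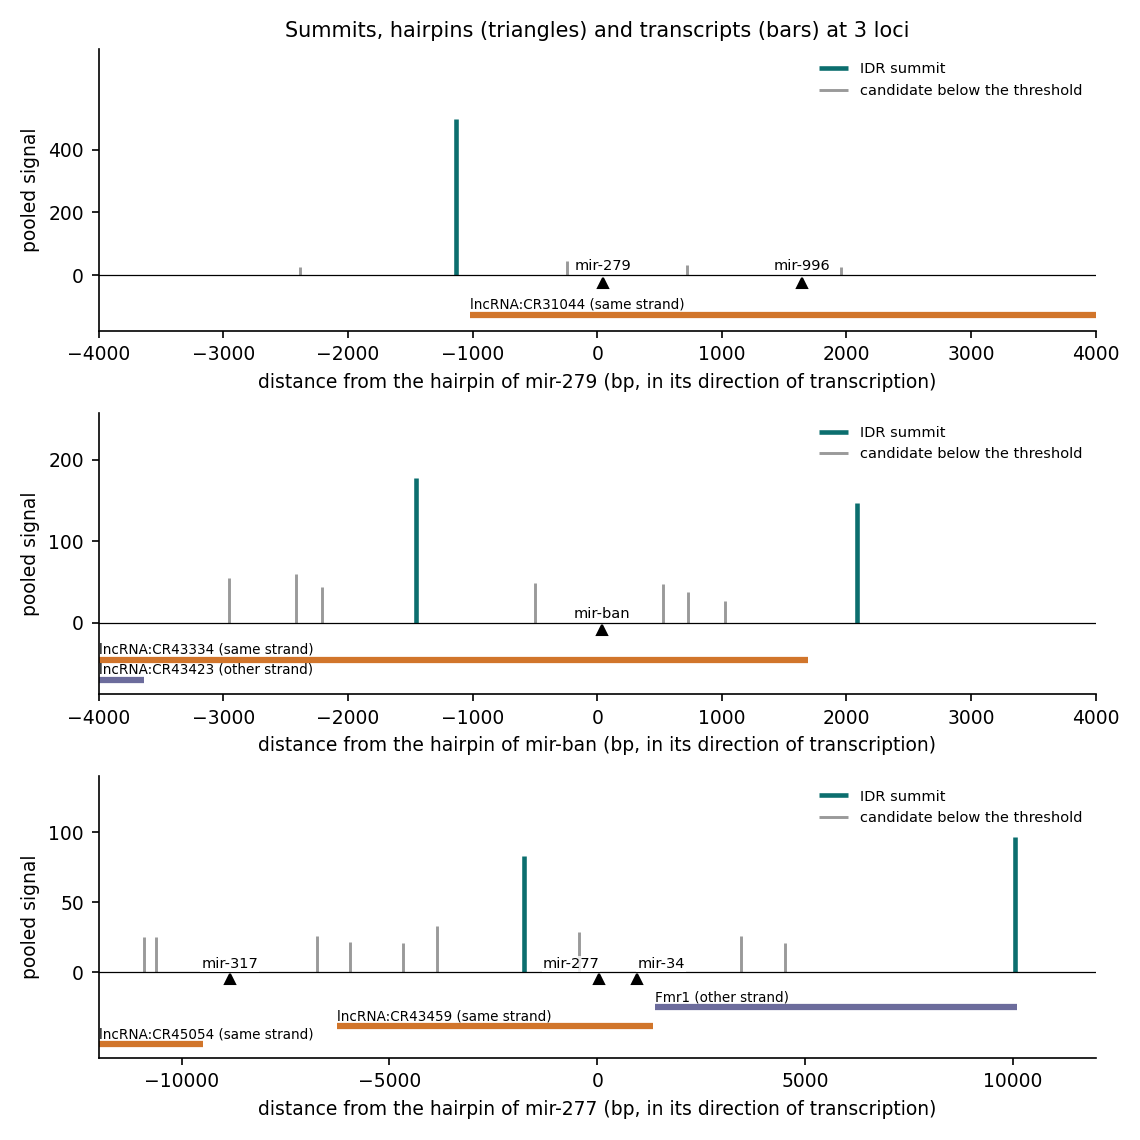
Pooled signal of IDR summits (teal) and weaker candidates (grey) along 3 loci (horizontal axis, distance in bp from the hairpin of mir-279, mir-ban or mir-277 in its direction of transcription), with hairpins as triangles and transcripts as bars, orange on the strand of the hairpin and blue on the other. The mir-279 summit at 497 stands at the left end of lncRNA:CR31044, the mir-ban hairpin lies between summits of 178 and 147, and the mir-277 summit at 83.4 lies within lncRNA:CR43459.

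Several bound members between genes are known as regulators of metabolism. mir-8, the fly relative of the miR-200 family that promotes growth through the fat body by repressing u-shaped, had a site 911 bp upstream with a pooled signal of 91.5. Its ranks were 1443 in replicate 2 and 1668 in replicate 3. mir-14, which limits cell death and fat storage, had a site 850 bp upstream with a pooled signal of 81.0. Its ranks were 1838 in replicate 2 and 2513 in replicate 3. These summits lay 168 bp and 68 bp from the starts of lncRNA:CR43650 and lncRNA:CR43651, the transcripts that enclose mir-8 and mir-14. Together with mir-279 they place 3 sites at the starts of annotated primary microRNA transcripts that lie between coding genes.

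mir-375, a microRNA known in mouse for control of insulin secretion, was the one member between genes with a pair of sites. The stronger, 630 bp downstream, had a pooled signal of 113 and ranked 1328 in replicate 2 and 974 in replicate 3. The weaker, 704 bp upstream, had a pooled signal of 74.3 and ranked 3486 in replicate 2 and 1935 in replicate 3. They stood 859 bp and 565 bp from the start of lncRNA:CR45345, which encloses the hairpin. mir-275 and mir-305 come from neighbouring hairpins of 1 cluster, and mir-305 is known for the upkeep of intestinal stem cells. Their shared site lay 361 bp upstream of mir-275 and 538 bp upstream of mir-305, with a pooled signal of 90.6 and ranks of 2101 in replicate 2 and 1779 in replicate 3.

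mir-277, which governs the breakdown of branched-chain amino acids, lies in a cluster with mir-317 and mir-34. Its site, 1773 bp upstream in an exon of lncRNA:CR43459, had a pooled signal of 83.4 and ranked 2540 in replicate 2 and 1631 in replicate 3. It was 4488 bp from that transcript's start. mir-34, an age-related microRNA, and mir-317 lay 2687 bp and 3437 bp from their nearest IDR summit. Only mir-277 of the 3 was therefore called. The remaining bound members between genes were mir-2496 and mir-955, whose sites both lay within 500 bp of a protein-coding start. The mir-2496 site, at 105, lay 464 bp upstream of the hairpin and 472 bp from the start of PIG-K. The mir-955 site, at 73.2, lay 1354 bp downstream in an intron of CG14968, 463 bp from a start of that gene. The mir-955 site was the weakest of all 24 and stood outside the 2334 strongest candidates of each replicate, at rank 3036 in replicate 2 and rank 2398 in replicate 3.

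Inside protein-coding genes the strongest site belonged to mir-9378, a hairpin in CG17124. It lay 162 bp upstream in an intron, with a pooled signal of 163 and ranks of 381 in replicate 2 and 866 in replicate 3. mir-92a, a hairpin in jigr1, had a site 417 bp downstream of the hairpin with a pooled signal of 153. It ranked 866 in replicate 2 and 321 in replicate 3. That summit was 229 bp from a start of jigr1 itself, and 7224 bp from the start of the jigr1 transcript that encloses the hairpin.

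The share of all IDR peaks that lie at protein-coding starts is not given here, so the following counts are descriptions only. For 6 of the 12 distinct sites near members inside genes, the summit lay within 500 bp of a protein-coding start, against 2 of 12 between genes. In 4 cases it lay within 50 bp of the host's start: 11 bp for mir-308 in the ribosomal protein gene RpS23, 12 bp for mir-2283 in the histone demethylase gene Kdm3, 20 bp for mir-2493 in CG42788 and 38 bp for mir-4949 in ATPsynC, which encodes a subunit of ATP synthase. Their pooled signals were 103 for mir-308, 79.1 for mir-2283, 92.4 for mir-2493 and 88.0 for mir-4949. mir-2283 also lies in a second host, CG8176, and its summit was within 500 bp of a start of that gene too. The mir-967 site, at 99.4, stood 228 bp from a start of bun, a TSC22-family regulator. Elsewhere the summit was deeper in the host. mir-4968 in Mob2 had a site at 134, lying 1416 bp from the nearest start. mir-9377 in Tis11, a gene for an mRNA decay factor, had sites at 130 and 88.6, both downstream of the hairpin and 6041 bp and 5058 bp from the nearest start. mir-281-1 and mir-281-2, in the antizyme gene Oda, shared a site at 89.3, lying 411 bp from the start of the non-coding asRNA:CR46194.

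The 1 site inside a hairpin was that of mir-4962 in an intron of Tlk, the Tousled-like kinase gene, with a pooled signal of 79.6. It also held matches to GAGAG. Its ranks were 1179 in replicate 2 and 5336 in replicate 3. The mir-4949 site was the most uneven of all, at rank 777 in replicate 2, with a signal of 67.5, and rank 9727 in replicate 3, with a signal of 18.7. Both sites therefore rest mainly on replicate 2.

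All 24 sites were found in both replicates' candidate lists, and 13 were among the 2334 strongest of each. The 2334 IDR peaks are the strongest regions of the pooled replicates, so presence in both lists is not an independent check. Being on that list does not mean that the replicates rank a site alike, as mir-4949 and mir-4962 show. Outside that range were 8 in replicate 2 and 4 in replicate 3. Between the replicates 10 ranked higher in replicate 2 and 14 higher in replicate 3. Counting genes directly, 21 members (8.08%) had a strongest candidate of replicate 2 within 2 kb, against 19.7% of all other genes. In replicate 3 the count was 24 (9.23%), against 20.4%. In both it was 17 (6.54%), and all 17 were among the 24 members with an IDR summit. A further 5 members had such a candidate in 1 replicate and no IDR summit: mir-3643 and mir-276a in replicate 2, and mir-1012, mir-2492 and mir-9370 in replicate 3.

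**Figure D5:**
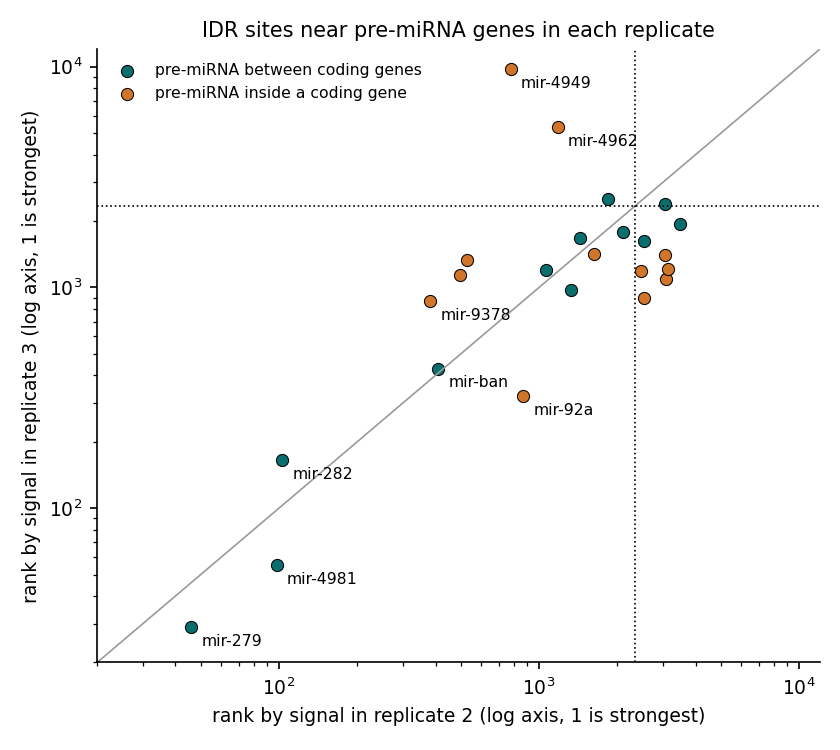
Rank by signal in replicate 2 (horizontal log axis) and replicate 3 (vertical log axis) of the 24 distinct IDR sites near pre-miRNA genes, with members between coding genes in teal and inside a coding gene in orange; rank 1 is strongest, the grey line marks equal ranks and the dotted lines mark rank 2334. The sites of mir-279, mir-4981, mir-282 and mir-ban lie near the grey line, while those of mir-4949 and mir-4962 lie far above it.

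The pooled candidates, which hold peaks and background together, reached 168 members (64.6%), against 78.1% of all other genes. They reached 108 of 166 members inside genes (65.1%) and 60 of 94 between (63.8%). In the 144 members with a candidate but no IDR summit, the strongest signal had a median of 33.0 (20.7 to 72.0). The median over all 27013 candidates below the threshold was 27.8. These are unlike measures, since the first takes the strongest candidate of each member and the second takes every candidate singly. The first is raised by that choice, so the 2 medians do not rank the members. The highest of these was that of mir-4975 at 72.0, rank 2363 and so just below the threshold of 72.5. By distance, the members just inside the 2 kb range were mir-4968 at 1835 bp and mir-281-2 at 1873 bp, and those just outside were mir-2495 at 2283 bp and mir-4982 at 2387 bp.

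Since a primary transcript can start far from its hairpin, summits were also counted within 500 bp of the start of any annotated transcript that encloses the hairpin on its strand. This count was added after the positions near hairpins had been seen, and the genes it names were chosen after their values were seen. Of 182 members with such a transcript, 30 had an IDR summit at its start (16.5%, 11.8% to 22.6%), and 11 of the 30 were also among the 24 with a summit within 2 kb. By either measure 43 of 260 members (16.5%) were reached. With an enclosing protein-coding transcript the count was 26 of 136 members, of which 24 had the summit at a protein-coding start and mir-281-1 and mir-281-2 had it at asRNA:CR46194 only. With only non-coding transcripts it was 4 of 46, namely mir-279, mir-996, mir-8 and mir-14. Counted by gene and over all starts of each gene, 28 of 128 protein-coding hosts had a summit at a start (21.9%, 15.6% to 29.8%), against 11.5% of all protein-coding genes. Of the non-coding RNA genes around a hairpin 5 of 37 did (13.5%, 5.91% to 28.0%), against 4.17% of all non-coding RNA genes. The hosts were longer and had more starts than the average gene. The protein-coding hosts had a median length of 14095 bp and a median of 2 starts, against 2166 bp and 1 start over all protein-coding genes, and the part of length and starts in the higher share was not tested.

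After lncRNA:CR31044, the strongest such start was that of spi, the gene of the main embryonic EGF receptor ligand, which hosts mir-2a-1, mir-2a-2 and mir-2b-2 of the K box family. The summit lay 174 bp from a spi start, had a pooled signal of 274 and ranked 140 in replicate 2 and 139 in replicate 3. It stood 5497 bp to 6200 bp from the 3 hairpins. E2f1, the cell-cycle factor that hosts mir-11 and mir-998, had a summit 12 bp from a start, with a pooled signal of 82.2 and ranks of 984 in replicate 2 and 5141 in replicate 3. That summit lay more than 10 kb from both hairpins, and mir-11 is known to restrain the death genes that E2f1 activates. Further hosts with a summit at a start were CG5953 (mir-4943) at 216, PAPLA1 (mir-4984) at 193, bun (mir-967) at 159 and MRP (mir-9382) at 147. The chromatin remodelling gene kis (mir-965) had a summit at 82.0, the synapse gene Nrx-1 (mir-4952) at 115 and the sex-determination gene Sxl (mir-4956) at 102. A summit at a host start belongs to the host as much as to the hairpin, and the lists do not tell them apart.

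The 67 microRNA genes grouped by known role were all found in the annotation, and 10 of them (14.9%) had an IDR summit within 2 kb, beside 9.23% of all members and 20.4% of all other genes. The lists are short and were chosen with results known, so their counts are descriptions to be read beside those shares. Of 10 genes linked to metabolism and hormones 6 were called: mir-8, mir-14, mir-275, mir-277, mir-305 and mir-375, of which mir-275 and mir-305 share 1 site. Of 6 genes linked to growth and cell survival 3 were called: mir-ban, mir-14 and mir-8. Of 18 neural and sensory genes 2 were called, mir-279 and mir-282, and of 5 genes of epidermis and trachea 1 was called, again mir-8. In the K box family of 13 genes 1 was called within 2 kb, mir-308, although 5 had a summit at an enclosing start, through RpS23, spi and E2f1. In all 9 genes stand in more than 1 list, among them mir-8, mir-9a, mir-14, mir-34 and mir-278, so the counts are not independent.

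The remaining 5 lists had no called member. Among 5 genes of mesoderm and muscle the strongest candidates were those of mir-9a at 39.2 and mir-1, the main muscle microRNA, at 36.6. The 4 genes of the Hox clusters gave 36.3 near mir-10 and 26.6 near mir-993, while mir-iab-4 and mir-iab-8 had no pooled candidate. The 8 genes of the early zygotic mir-309 cluster, which clears maternal messenger RNA, shared a candidate at 29.2. The 7 genes of the mir-310 cluster had a strongest candidate of 34.4, shared by mir-310 to mir-313. The let-7 complex, whose 3 genes act mainly at metamorphosis, had no pooled candidate within 2 kb, and its nearest IDR summits were over 30 kb away. All of these values lie below the threshold of 72.5, where peaks and background are listed together, so a low value does not show that the protein is absent.

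The genes that make and use microRNAs were looked at beside the hairpins, by summits in the gene body or within 2 kb of it. Of 13 such genes 7 had an IDR summit (53.8%), against 22.2% of all protein-coding genes. The list was chosen with results known, and the measure takes in the gene body. Only r2d2 (1952 bp) and ldbr (1789 bp) were shorter than the median protein-coding gene (2166 bp), and AGO1 reached 14703 bp. The part of length in the higher share was not tested. In the nuclear step pasha had the strongest peak, with a pooled signal of 372, rank 82 in replicate 2 and rank 64 in replicate 3, lying outside the gene and 1797 bp from its nearest start. Its catalytic partner drosha had none and a strongest candidate of 22.0. The export factor gene Ranbp21 had a peak at 77.5, lying 130 bp from a start. For dicing, loqs, the partner of Dicer-1, had a peak at 129, lying 1807 bp beyond the end of the gene and 4826 bp from its start. Dcr-1 had no pooled candidate.

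Of the effector genes, AGO1 had a peak at 139, lying 106 bp from a start, and gw, whose product GW182 silences messages bound by AGO1, had a peak at 121, lying 97 bp from a start. In the related siRNA branch r2d2 had a peak at 240, lying 126 bp from its start, with rank 194 in replicate 2 and rank 206 in replicate 3. Hen1, which methylates small RNAs held by AGO2, had a peak at 100.4, lying inside the gene and 4774 bp from its nearest start. Neither Dcr-2, with a strongest candidate of 24.0, nor AGO2, with 54.6, had an IDR peak. The trimming nuclease gene Nbr (44.0) and the debranching enzyme gene ldbr (29.7), which feeds intron-derived hairpins into the pathway, had none either.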

How the data were processed

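Regions were taken as the authors deposited them in dm6 coordinates: candidates for each replicate and for the pooled replicates, and a list thresholded by IDR. The signal per region is the peak caller's value, deposited by the authors with no stated scale, and the sources used here do not give the aligner or the caller. Lists in dm3 coordinates were not used. Summits were read from the deposited offsets and set against Ensembl release 115 (annotation 6.54) and the RefSeq Release 6 genome, with Python 3.11.15, pandas 2.3.3, SciPy 1.17.1 and pysam 0.24.0. A member was called where a summit lay within 2 kb of it; 2 pre-miRNA genes on rDNA sequence were left out. The distance and counting steps were tested on simulated data.

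There is 1 group and no contrast, so shares carry 95% Wilson intervals and no p-values. The replicates are separate biological samples per the labels, and sequencing depth is unknown. Members, microRNA lists and pathway genes were chosen with earlier results of these data known. Named genes are all members with an IDR summit within 2 kb, the listed members with the strongest candidates where a list had none, pathway genes, hosts and nearest starts. Lead arms of mature sequences are those with the lower miRBase number. Alternatives were other windows, thresholds, cluster gaps, host rules and each replicate alone.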

Additional observations from a re-analysis of the deposited data

How the results depend on the processing

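No paired analysis was possible because the series has 1 group. Counts of called features followed the window, outside the members too. Of 17423 other genes 2825 were called at 1 kb and 5251 at 5 kb, beside 3548 at 2 kb. Of the positions every 10 kb, 3.39% were called at 1 kb and 14.1% at 5 kb, beside 6.32% at 2 kb. At 1 kb there were 14 members, 13 clusters, 6 members and 6 clusters inside genes, 7 clusters between genes, 35 snoRNA genes, 23 tRNA genes and 111 members with a pooled candidate, and 13, 13 and 10 members by the strongest candidates of replicate 2, replicate 3 and both. At 5 kb there were 52 members, 43 clusters, 35 members and 30 clusters inside genes, 3632 protein-coding gene starts, 134 snoRNA genes, 67 tRNA genes and 19 listed genes, and 52, 54 and 44 members by replicate 2, replicate 3 and both. With the IDR peaks above their median signal there were 10 members, 10 clusters, 4 members and 4 clusters inside genes, 6 members and 6 clusters between genes, 2026 other genes, 1185 protein-coding gene starts, 18 tRNA genes, 4 listed genes and 15 members with a summit at an enclosing start. With each replicate's strongest 1000 candidates there were 9 members in replicate 2, 8 in replicate 3 and 6 in both, and the count over all other genes is not given here. Cluster gaps of 5 and 20 kb, hosts on the same strand only, overlap by 1 bp, leaving out chromosome 4 and each replicate alone kept every count within 1.5 times. Upstream shares, added after seeing the data, stayed between 66.7% and 75%. Depth is unknown, so a missing peak does not show missing binding.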
